A study of Mus musculus with 11 samples.

Results

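The ZIC2 peaks of mouse epiblast stem cells (EpiSCs) were compared between the normal culture and a culture without activin. Both deposited lists of ZIC2 peaks were used, and every peak on chromosomes 1 to 19 and X was a member. These were 121805 EpiSC peaks and 109062 activin-free peaks, or 230867 of the 1003005 peaks in the 10 lists of the series. A peak was called shared when at least 1 bp of it overlapped a peak of the other list, and otherwise EpiSC-only or activin-free-only.

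The series maps 5 transcription factors (TFs), ZIC2, OTX2, SOX2, POU5F1 and POU3F1, by ChIP-seq in a feeder-free EpiSC line of the 129/Sv strain. The medium of EpiSCs had Fgf2 at 10 ng/ml and activin at 20 ng/ml, and for the activin-free samples activin was withheld during the last 18 h before harvest. In both cultures the cells were transiently transfected with pCAGGS-BLRP-BirA to express ZIC2 that carried the BLRP tag, which the co-expressed BirA ligase biotinylates, and chromatin was recovered on streptavidin. The maps therefore show the tagged ZIC2 made from the plasmid, on top of the ZIC2 that the cells make themselves. There was 1 ZIC2 library in each culture, so no value has a replicate error, a difference between the lists cannot be told apart from a difference between 2 libraries, and no test between cultures was made. Intervals are 95% Wilson intervals or, for medians, order-statistic intervals, and cover counting error only.

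ZIC2 is a zinc-finger TF of the Zic family, whose fingers resemble those of the GLI proteins of the hedgehog pathway and bind G/C-rich DNA. It is active in the epiblast and the early neural plate, and mutations in it cause holoprosencephaly, a failure of the forebrain to divide. Activin is added to EpiSC culture in place of Nodal, the related ligand of the embryo. Both act through type I and type II activin receptors, SMAD2 and SMAD3, which enter the nucleus with SMAD4 and bind DNA with partners such as FOXH1. This signal holds EpiSCs in the primed pluripotent state and drives Nodal itself, its antagonists Lefty1 and Lefty2, and genes of the primitive streak.

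DNA at the centre of some peaks is shown first, to give the sequences that the later values refer to. Each is the plus strand of mm9 over 200 bp around the midpoint of the peak, and capitals mark the 6 sequences searched on both strands: CAGCAGG (or CCTGCTG on the other strand; the core bound by Zic proteins, called the ZIC motif here), TGGGTGGTC (GLI type), GGATTA (OTX2 type), ATGCAAAT (octamer), AATCCACA (FOXH1) and GTCTAGAC (SMAD). The ZIC motif was present at the following peaks, which are the first with the motif and without exon bases in each order: a pair that ranked higher without activin (nearest gene Penk), a pair that ranked lower without activin (Kcnk12), an EpiSC-only peak (Thbs1) and an activin-free-only peak (Fgl1).
Penk window at chr4:4392557-4392756: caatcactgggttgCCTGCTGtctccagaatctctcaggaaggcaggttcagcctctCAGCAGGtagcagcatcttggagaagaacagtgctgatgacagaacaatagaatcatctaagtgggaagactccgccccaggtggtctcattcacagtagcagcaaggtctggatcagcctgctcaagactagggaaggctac
Kcnk12 window at chr17:88250316-88250515: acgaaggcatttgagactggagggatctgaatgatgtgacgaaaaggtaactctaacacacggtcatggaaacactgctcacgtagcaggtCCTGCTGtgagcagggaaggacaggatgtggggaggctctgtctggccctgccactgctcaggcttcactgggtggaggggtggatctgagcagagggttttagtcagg
Thbs1 window at chr2:117937017-117937216: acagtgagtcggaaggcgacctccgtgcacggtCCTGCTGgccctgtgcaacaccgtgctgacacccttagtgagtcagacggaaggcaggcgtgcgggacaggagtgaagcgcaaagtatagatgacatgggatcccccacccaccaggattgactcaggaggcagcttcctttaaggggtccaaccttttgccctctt
Fgl1 window at chr8:42309432-42309631: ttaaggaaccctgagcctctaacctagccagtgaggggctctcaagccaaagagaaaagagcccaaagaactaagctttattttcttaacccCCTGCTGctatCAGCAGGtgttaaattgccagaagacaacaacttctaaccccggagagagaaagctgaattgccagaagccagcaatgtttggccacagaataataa

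The peak of the Penk window scored 53.7 in the EpiSC list and 348 in the activin-free list, and it lay 327 kb from the TSS of that gene. The peak of the Kcnk12 window went the other way, from 410 to 53.0, and lay 53.1 kb from the TSS. The Thbs1 peak, 0.495 kb from the TSS, scored 314 in EpiSCs and had no activin-free partner. The Fgl1 peak, 9.02 kb upstream of the gene, scored 287 without activin and had no EpiSC partner; its window held the motif on both strands.

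The next windows are each from the highest-scoring EpiSC peak within 5 kb of a gene's TSSs whose window held no exon base. The first lies upstream of Lefty2, which encodes an inhibitor of Nodal, and held the SMAD palindrome. The second is from Nodal, the gene that starts the pathway. The third window comes from Otx2, which encodes a TF of the epiblast and forebrain and had ZIC2 peaks within 5 kb of its TSSs in the EpiSC list only.
Lefty2 window at chr1:182819301-182819500: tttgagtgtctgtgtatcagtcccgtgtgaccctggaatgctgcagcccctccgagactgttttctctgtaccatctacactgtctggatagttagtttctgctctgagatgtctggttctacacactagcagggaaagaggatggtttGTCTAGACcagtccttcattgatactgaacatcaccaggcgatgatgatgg
Nodal window at chr10:60878687-60878886: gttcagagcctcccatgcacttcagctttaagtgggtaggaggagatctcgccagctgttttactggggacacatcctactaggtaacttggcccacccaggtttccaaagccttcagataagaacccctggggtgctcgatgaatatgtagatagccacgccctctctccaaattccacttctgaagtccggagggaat
Otx2 window at chr14:49288657-49288856: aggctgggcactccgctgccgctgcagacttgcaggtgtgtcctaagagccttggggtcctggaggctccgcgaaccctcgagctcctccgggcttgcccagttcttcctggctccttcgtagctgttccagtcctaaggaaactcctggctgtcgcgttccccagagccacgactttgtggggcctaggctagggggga

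The 3 windows that follow are from the highest place of each class by rank of score, outside exons: a shared peak (nearest gene Arid1b), an EpiSC-only peak (Fzd5) and an activin-free-only peak (Aebp2). The first is made of tandem repeats of tccat-like units and the second of a longer tandem unit, and neither held any of the 6 motifs.
Arid1b window at chr17:4626252-4626451: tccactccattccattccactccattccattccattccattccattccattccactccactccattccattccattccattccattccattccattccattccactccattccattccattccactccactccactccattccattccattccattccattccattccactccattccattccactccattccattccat
Fzd5 window at chr1:64845943-64846142: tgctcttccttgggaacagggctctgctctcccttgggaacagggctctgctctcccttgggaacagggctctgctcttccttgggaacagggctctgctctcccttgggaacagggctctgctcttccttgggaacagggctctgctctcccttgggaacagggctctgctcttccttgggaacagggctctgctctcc
Aebp2 window at chr6:140552019-140552218: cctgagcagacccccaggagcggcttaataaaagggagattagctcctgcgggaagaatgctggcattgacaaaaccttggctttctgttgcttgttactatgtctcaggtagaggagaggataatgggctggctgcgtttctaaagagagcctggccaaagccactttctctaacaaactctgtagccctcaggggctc

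Most ZIC2 peaks were present in both cultures, and the activin-free list was close to a subset of the EpiSC list. In the EpiSC list 96151 peaks (78.9%, interval 78.7 to 79.2%) overlapped an activin-free peak, and in the activin-free list 99459 peaks (91.2%, interval 91.0 to 91.4%) overlapped an EpiSC peak. There remained 25654 EpiSC-only peaks (21.1%) and 9603 activin-free-only peaks (8.81%). Peaks covered 130.9 Mb in EpiSCs and 107.8 Mb without activin, and 96.9 Mb were covered in both, or 74.0% and 89.8% of the bases of the lists. The overlap is not one-to-one, since 4.34% of EpiSC peaks touched at least 2 activin-free peaks and 2.17% of activin-free peaks touched at least 2 EpiSC peaks.

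The list with fewer peaks had the higher scores. The score is -10 log10 of the p-value that MACS assigned to the peak, and it was at least 50 in both lists. Its median was 170 in EpiSCs and 199 without activin, and its 90th percentile was 941 and 1368. Scores of 3100 or more, near the top of the scale, were given to 887 EpiSC peaks and 2695 activin-free peaks. A score grows with read depth, which is unknown for both libraries, so a score of 1 list does not have the same meaning in the other. Scores of genes are therefore given below together with their percentile within the list, which is 100 for the highest. Many peaks had a score of exactly 3100 and so shared 1 percentile, 99.6 in EpiSCs and 98.7 without activin. Differences in score or percentile among scores of 3100 or more are therefore not read as changes between the cultures. When only the 50000 highest-scoring peaks of each list were kept, 86.9% of EpiSC peaks and 88.9% of activin-free peaks were shared, so that the gap between the lists narrowed.

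Among the 5 TFs, ZIC2 had the highest activin-free share both in the full lists and with 50000 peaks, whereas its EpiSC share was the third in the full lists and the highest with 50000 peaks. In the full lists the EpiSC share of 78.9% for ZIC2 stood beside 98.3% for POU5F1, 82.6% for POU3F1, 78.1% for OTX2 and 77.6% for SOX2, and the activin-free share of 91.2% beside 47.1%, 86.8%, 67.5% and 55.9%. With 50000 peaks in each list, the EpiSC share was 86.4% for POU3F1, 84.0% for POU5F1, 74.0% for OTX2 and 67.7% for SOX2. The intervals of ZIC2 (86.6 to 87.2%) and POU3F1 (86.1 to 86.7%) overlapped. In EpiSCs 50000 peaks were a larger part of the POU5F1 (62387 peaks) and SOX2 (63672) lists than of the ZIC2 list (121805), so weaker peaks were kept for those TFs. The activin-free share for POU3F1, POU5F1, OTX2 and SOX2 was then 84.2%, 81.5%, 71.3% and 66.8%. Each TF had 1 library in each culture, and whether ZIC2 differs from the others beyond the variation among libraries was not tested.

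Unshared peaks were confined to weak and medium scores in these 2 lists. In the lowest decile of the EpiSC list 32.4% of peaks were shared, in decile 5 86.2%, and in deciles 9 and 10 all peaks. The activin-free list began at 63.7% in its lowest decile, reached 97.6% in decile 5 and was wholly shared in deciles 8 to 10. Ordered by score, the first 28922 EpiSC peaks and the first 39986 activin-free peaks all had a partner. The highest unshared scores were 445 and 330. The upper 50% of the EpiSC list contained 745 unshared peaks (1.22%), and that of the activin-free list only 53 (0.0972%). Of all unshared peaks, 79.0% in EpiSCs and 86.3% without activin scored under 100.

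**Figure D1:**
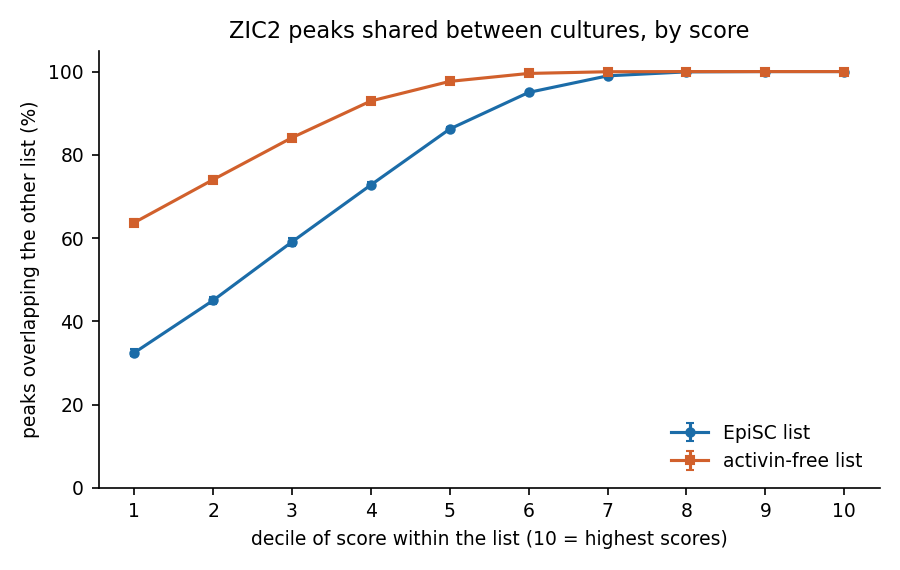
Share of ZIC2 peaks that overlapped the other list (%, vertical axis) in deciles of each list by score (horizontal axis, 10 is highest); bars are 95% Wilson intervals and are mostly smaller than the symbols. The EpiSC line rises from 32.4% and the activin-free line from 63.7%, and both reach 100%.

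Shared peaks also kept their order. There were 87177 pairs in which 1 EpiSC peak overlapped 1 activin-free peak and no other, which were 90.7% of shared EpiSC peaks. Across these pairs Spearman's correlation was 0.885 for the score and 0.825 for the width, given as a description since the pairs share their 2 libraries. The midpoints of a pair lay a median of 57 bp apart. The EpiSC peak was the wider of the pair in 69.3%, with median widths of 945 and 843 bp. In ranks among the pairs, where 100 is the highest, the median absolute difference between cultures was 7.17 points.

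A small fraction of pairs changed rank by at least 25 points. Without activin 3682 pairs (4.22%) ranked higher by that much and 3743 (4.29%) lower. The first group had median scores of 88.7 in EpiSCs and 212 without activin, and the second had 216 and 76.2. Pairs that ranked lower without activin were wide in EpiSCs, with a median of 1086 bp against 675 bp in the partner, whereas pairs that ranked higher had 680 and 697 bp. Of the pairs that ranked higher 24.7% lay within 5 kb of a TSS, of those that ranked lower 35.0%, and of all pairs 37.5%.

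Unshared peaks were narrower than shared ones and lay farther from genes. Median widths were 971 bp for shared EpiSC peaks, 632 bp (interval 630 to 634) for EpiSC-only peaks, 856 bp for shared activin-free peaks and 542 bp (538 to 545) for activin-free-only peaks. Peaks wider than 2000 bp made up 10.0% of shared EpiSC peaks, but there were only 14 among the EpiSC-only peaks and 1 among the activin-free-only peaks. Peaks under 500 bp made up 34.2% of the activin-free-only class and 13.1% of the EpiSC-only class. A TSS of GENCODE vM1 lay within 5 kb of 38.9% (38.6 to 39.2%) of shared EpiSC peaks, 29.1% (28.6 to 29.7%) of EpiSC-only peaks and 22.9% (22.1 to 23.8%) of activin-free-only peaks. Within 1 kb these shares were 20.3%, 8.38% and 6.59%. When sharing required an overlap of 50% of both peaks, the order of the unshared classes within 5 kb reversed, with 32.3% of EpiSC-only and 36.1% of activin-free-only peaks. Activin-free-only peaks were the class most often intergenic, at 48.0%, compared with 41.1% of EpiSC-only and 34.8% of shared EpiSC peaks, and 43.4% of EpiSC-only peaks lay in introns.

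**Figure D2:**
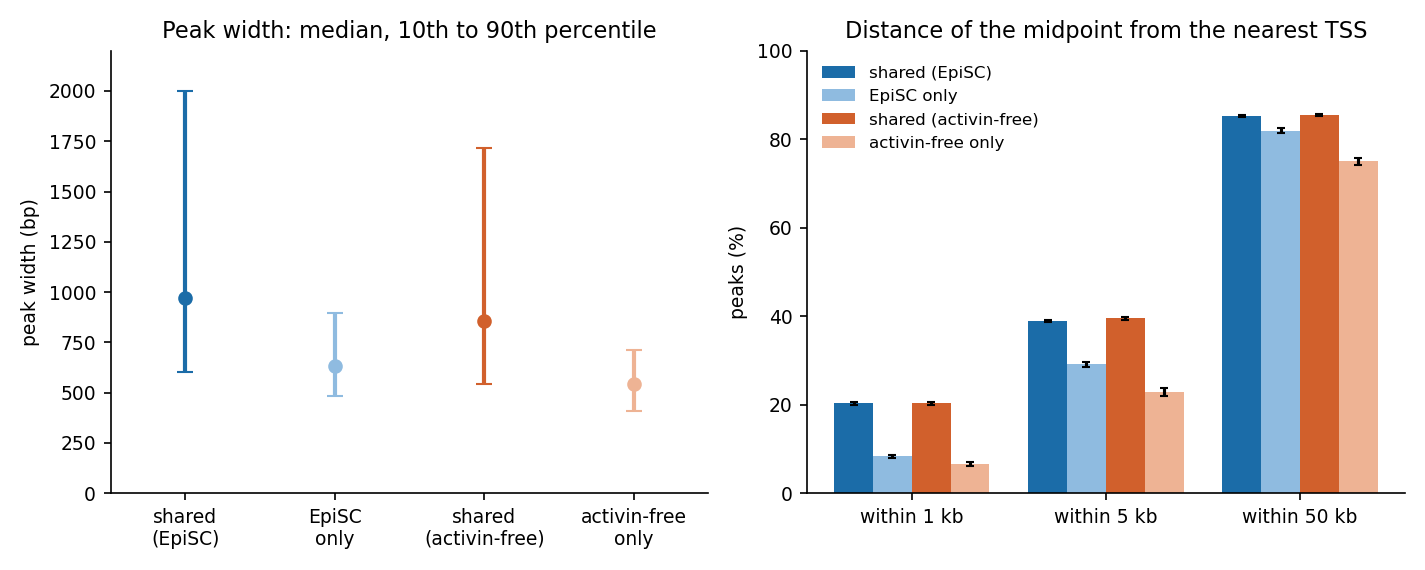
Left, peak width in bp for the 4 classes of ZIC2 peak, with the median as a point and the 10th to 90th percentile as a line. Right, share of peaks (%) with their midpoint within 1, 5 or 50 kb of a TSS, with 95% Wilson intervals; with overlap counted from 1 bp, activin-free-only peaks are lowest at each distance, with 74.99% within 50 kb.

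Since low scores go with small widths and with distance from genes, classes were also compared among peaks scoring under 100, a limit chosen after seeing the data. In that band the difference between shared and EpiSC-only peaks turned around at 5 kb, with 26.3% (25.6 to 26.9%) of shared and 28.2% (27.6 to 28.8%) of EpiSC-only peaks, but not at 1 kb, with 8.74% (8.33 to 9.17%) and 7.96% (7.59 to 8.34%). For activin-free peaks the difference had the same direction but was smaller, at 29.9% (29.3 to 30.5%) of shared and 22.9% (22.0 to 23.8%) of activin-free-only peaks, compared with 39.5% and 22.9% over all scores. Widths in the band were 637 bp for shared and 598 bp for EpiSC-only peaks, and 599 bp for shared and 534 bp for activin-free-only peaks.

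The gap between an unshared peak and the nearest peak of the other list was at most 500 bp for 14.7% of EpiSC-only and 14.3% of activin-free-only peaks, and at most 5 kb for 60.6% and 55.7%. The median distance to the nearest midpoint of the other list was 3.97 and 4.55 kb, and that to a shared peak of the same list was 4.36 and 5.92 kb. Peaks of both lists were spread over the genome in much the same way, since across 2543 segments of 1 Mb the numbers of EpiSC and activin-free peaks had a Spearman correlation of 0.991. The share of the list in a segment differed most towards the activin-free list at chr10:80000001-81000000 (306 EpiSC and 339 activin-free peaks), chr10:79000001-80000000 (331 and 327) and chr2:27000001-28000000 (247 and 247). Only the first of these had more peaks without activin, and each had more EpiSC-only than activin-free-only peaks (32 and 11, 39 and 9, 29 and 13). The share differed most towards the EpiSC list at chr12:17000001-18000000 (121 and 90 peaks), chr16:95000001-96000000 (103 and 75) and chr19:55000001-56000000 (76 and 51).

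The ZIC motif was common at the centre of every class and differed between the classes. It was found in 19.7% of shared EpiSC windows, 16.5% (16.1 to 17.0%) of EpiSC-only windows, 20.7% of shared activin-free windows and 23.4% (22.6 to 24.3%) of activin-free-only windows. Windows of the same length 1000 bp to either side held it in 5.69 to 6.48%, so all 4 classes stood well above their flanks. The flanks also had a lower GC content, given below, and its part in this difference was not tested. Among peaks that scored under 100 and were 500 to 700 bp wide, the shares were 21.5% for shared EpiSC, 16.2% for EpiSC-only, 19.7% for shared activin-free and 21.5% for activin-free-only peaks. In this band the interval of EpiSC-only peaks (15.6 to 16.9%) stood below that of shared EpiSC peaks (20.7 to 22.3%), whereas those of activin-free-only (20.4 to 22.7%) and shared activin-free peaks (19.1 to 20.4%) touched. Over the whole peak the order was different, with the motif in 52.4% of shared EpiSC, 34.5% of EpiSC-only, 50.04% of shared activin-free and 35.9% of activin-free-only peaks, which differ in width. Under a score of 100 these shares were 37.4%, 32.5%, 36.3% and 34.9%. The Fgl1 and Thbs1 windows above are examples of unshared peaks with the motif, and the Fzd5 and Aebp2 windows of unshared peaks without it there. In peaks wider than 2000 bp the windows to either side lay partly within the peak.

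In the windows at the midpoint, though not over whole peaks, pairs that changed rank differed more in the motif than the classes did. It was present at the EpiSC midpoints of 30.3% (28.9 to 31.8%) of the pairs that ranked higher without activin, 14.9% (13.8 to 16.1%) of those that ranked lower and 20.3% of all pairs. At the midpoints of the activin-free peaks the shares were 28.2%, 18.97% and 21.0%. Among pairs with EpiSC peaks 600 to 800 bp wide they were 30.7% (28.7 to 32.7%), 19.5% (16.1 to 23.5%) and 24.7%. Over the whole EpiSC peak, which was longer in the pairs that ranked lower, the order was the reverse, with 45.1% of the pairs that ranked higher and 51.6% of those that ranked lower. The GLI-type sequence was rare but had the same order at the EpiSC midpoints, at 0.706% of higher-ranking, 0.187% of lower-ranking and 0.381% of all pairs. These intervals cover counting error in 2 libraries, and whether other libraries would differ in this way was not tested.

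**Figure D3:**
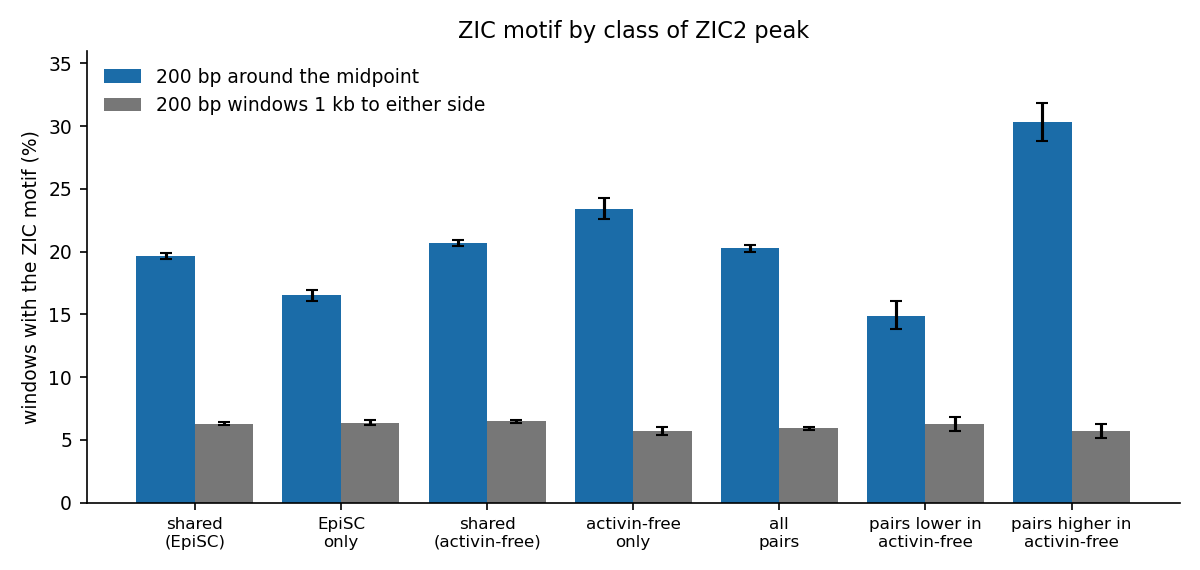
Share of 200 bp windows (%) with the ZIC motif at peak midpoints (blue) and 1 kb to either side (grey) in each class and in pairs by change of rank, with 95% Wilson intervals. Flanks stay between 5.69% and 6.48%, and pairs that ranked higher without activin reach 30.3%.

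The sequences tied to activin signalling were near or below the level of their flanks in these classes. The FOXH1 sequence was in 0.654% of shared EpiSC, 0.733% of EpiSC-only and 0.635% of activin-free-only windows, with the lower value than its flanks in each case (0.784%, 0.809% and 0.812%). The SMAD palindrome was in 0.153%, 0.164% and 0.219%, beside flanks of 0.173%, 0.185% and 0.182%. The Lefty2 window shown above is thus 1 of 147 shared EpiSC windows with the palindrome. The OTX2-type sequence was less frequent at ZIC2 midpoints than beside them in all 4 classes, at 3.82 to 4.45% against 7.81 to 7.94%. Median GC content was 55.5% in shared EpiSC, 54.0% in EpiSC-only, 56.0% in shared activin-free and 53.5% in activin-free-only windows. Below a score of 100, activin-free peaks lacked a partner more often at low than at high GC content, with 21.9% at 60% GC and above, 21.8% at 55 to 60%, 28.1% at 50 to 55%, 39.6% at 45 to 50%, 52.4% at 40 to 45% and 50.5% in the 97 peaks below 40%. In the EpiSC list the same bins gave 46.7%, 54.0%, 56.5%, 52.6%, 48.0% and 38.6%.

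The X chromosome stood apart among the activin-free peaks. Of its 1930 activin-free peaks 344 had no EpiSC partner, which was 17.8% (16.2 to 19.6%) compared with 8.64% on the autosomes, where the lowest was 7.05% on chromosome 11 and the highest 11.6% on chromosome 3. The EpiSC-only share of X was 23.9%, within the range of the autosomes (19.03 to 24.15%). The 344 peaks were spread over 133 of its 1 Mb segments, with at most 10 in a segment. X peaks had lower scores than autosomal ones, with activin-free medians of 139 and 200. Among peaks scoring 100 or more, X had 4.10% (3.13 to 5.37%) activin-free-only peaks and the autosomes 1.65%. At 45 to 55% GC and a score under 100, the shares were 47.7% and 30.4%. The cause of the difference between X and the autosomes was not tested.

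X also stood apart among the shared peaks. The median change of rank of its 1476 pairs was +3.47 points towards the activin-free list, while the medians of the autosomes were between -0.668 and 0.648. On X 8.40% of pairs ranked higher by 25 points without activin and 2.71% ranked lower, compared with 4.15% and 4.32% on the autosomes. Unshared activin-free peaks were also more frequent on X than on the autosomes for the other TFs. Of the activin-free peaks of OTX2 53.0% on X and 31.9% on the autosomes had no EpiSC partner, and the pairs of values were 64.0% and 43.1% for SOX2, 65.7% and 52.1% for POU5F1 and 16.01% and 13.02% for POU3F1. Among EpiSC peaks, X had 14.6% unshared for OTX2 and the autosomes 22.1%, and for the remaining 4 TFs, ZIC2 included, the ratio of X to autosomes was between 0.731 and 1.14.

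**Figure D4:**
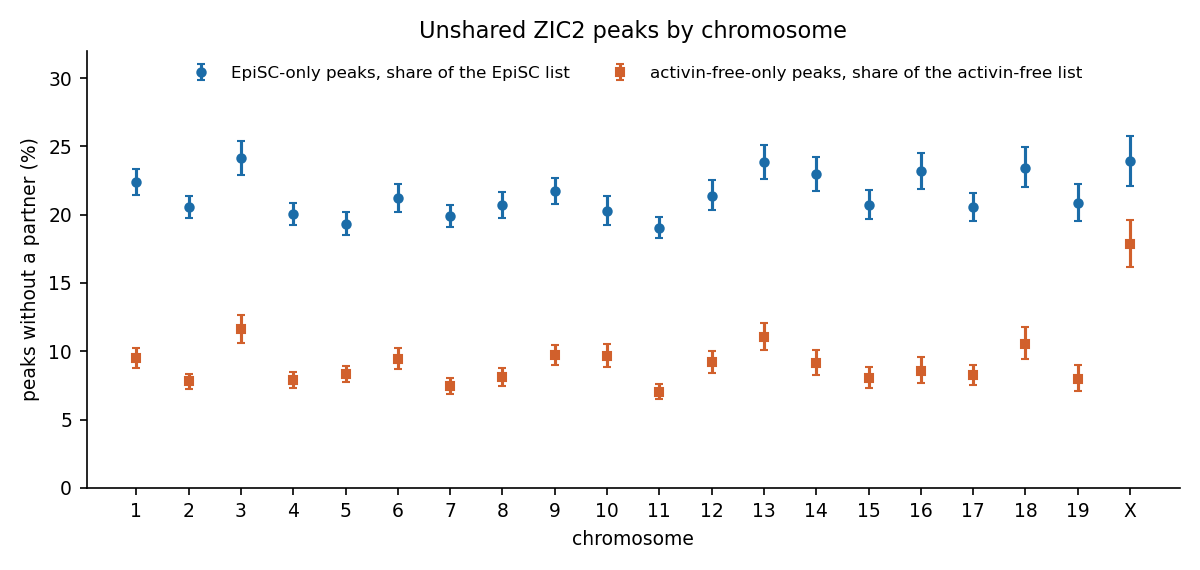
Share of ZIC2 peaks without a partner (%) on each chromosome, in the EpiSC list (blue) and the activin-free list (orange), with 95% Wilson intervals. Activin-free-only peaks make up 17.8% on X and 7.05 to 11.6% on the autosomes.

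Peaks of the other TFs were counted at ZIC2 peaks in the same culture. OTX2 overlapped 16.1% of shared EpiSC peaks, 9.87% of EpiSC-only peaks, 12.9% of shared activin-free peaks and 10.2% of activin-free-only peaks. Under a score of 100 the 4 shares came together at 10.7%, 9.64%, 9.15% and 9.97%. SOX2 and the POU factors were rarer. Over all scores SOX2 overlapped 1.62% of EpiSC-only and 4.72% of activin-free-only peaks, compared with 3.04% and 4.90% of the shared peaks of the same lists. POU5F1 overlapped 2.02% and 5.01%, compared with 3.07% and 4.10%. Under a score of 100, SOX2 overlapped 1.61% of EpiSC-only and 4.50% of activin-free-only peaks, compared with 2.47% and 3.04% of the shared peaks. In the same band POU5F1 overlapped 1.97% and 4.82%, compared with 2.77% and 3.29%. The SOX2 list had 63672 peaks in EpiSCs and 87781 without activin, and the POU5F1 list 62387 and 126751. The part of these list lengths in the overlaps was not tested. At ZIC2 pairs that ranked higher without activin, OTX2 peaks were present in 12.5% in EpiSCs and 13.4% without activin, and at pairs that ranked lower in 13.1% and 8.02%. Over all pairs the shares were 15.8% and 13.1%.

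Nearly all genes with a ZIC2 peak near their start had one in both cultures. Of 22350 protein-coding genes, 16479 (73.7%) had a shared peak within 5 kb of a TSS, 66 (0.295%) had peaks in both lists but none shared, 579 (2.59%) had a peak in the EpiSC list only, 259 (1.16%) in the activin-free list only and 4967 (22.2%) had none. With the 50000 highest peaks of each list, 589 genes had an EpiSC peak only and 479 an activin-free peak only. The best peak of the EpiSC-only genes had a median score of 75.9 and that of the activin-free-only genes 68.9, whereas genes with a shared peak had a median of 797. In 568 of the 579 and 252 of the 259 genes every peak in the window was itself unshared; in the others a peak reached its partner only outside the window.

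Of the 25 genes of Nodal and activin signalling, 24 had a shared ZIC2 peak within 5 kb, compared with 73.7% of all genes, and Cer1, a secreted Nodal antagonist, had none in either list. Within 50 kb of their TSSs there were 408 EpiSC peaks, of which 19.1% were EpiSC-only, and 354 activin-free peaks, of which 5.08% were activin-free-only; over all genes these shares were 20.1% and 7.30%. Some of the 24 genes also had EpiSC peaks without a partner within 5 kb, among them Smad3, where 7 of 14 were unshared, and Nodal, where 2 of 4 were. The best peak at Nodal, chr10:60878018-60879556 in EpiSCs, scored 2243 there and 3100 without activin, at percentiles of 98.1 and 98.7. Lefty1, the antagonist next to Lefty2 on chromosome 1, had 2487 and 2603, at percentiles of 98.6 and 96.4. Smad7, an inhibitory SMAD induced by the pathway, had 3100 in both, at 99.6 and 98.7, the percentiles of all peaks tied at this score.

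Lefty2 and the receptor gene Acvr2a were the largest exceptions among the best peaks of this list. The best peak at Lefty2 (ENSMUSG00000066652.5, chromosome 1 from 182823239 to 182829234, plus strand) lay upstream, at chr1:182818162-182820639 in EpiSCs and chr1:182818257-182819915 without activin, and contained the window printed above. It scored 656 and 313, its percentile was 84.1 and 62.1, and its width was 2478 and 1659 bp. The other 3 Lefty2 peaks scored 77.1 to 174 in EpiSCs and 88.9 to 190 without activin. In percentiles 2 of them were higher without activin (22.2 and 32.1, 20.0 and 23.8) and 1 was lower (50.7 and 48.7). Acvr2a had 1 peak, which scored 362 and 153, at percentiles of 71.4 and 42.1. For each gene the highest-scoring pair within 5 kb was also followed by its rank among the pairs, and it fell by at least 25 points at 2 of 23 genes of the list, Acvr2a and Tgif1, and rose by that much at none. Over 15926 genes with such a pair, 323 (2.03%) fell and 222 (1.39%) rose, and the median change was -0.748 points, beside -1.35 in the list. The list median was the value at Smad3, with scores of 3207 and 3100. Genes with 3100 in both lists, such as Smad7, had -0.959, because equal scores share a rank. Medians of this size are therefore not read as a fall. Tgif1, which encodes a repressor of SMAD activity, also had a higher peak outside the pairs, with scores of 1673 and 1578, at percentiles of 96.2 and 91.7.

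Genes of the primitive streak and endoderm had a shared peak in 18 of 18 cases, compared with 73.7% of all genes. T, which encodes the mesoderm TF brachyury, had scores of 3156 and 3100 at its best peak, at percentiles of 99.9 and 98.7, a difference among tied top scores that is not read as a fall. Eomes had 1937 and 2222, at 97.3 and 95.1. Mixl1 had 2368 and 3100, at 98.4 and 98.7, and Gsc, a homeobox gene of the organizer, 1643 and 1457, at 96.1 and 90.8. No gene of this list changed by 25 points among the pairs, where the changes ran from -11.8 at Cdx2 to 18.9 at Gata6. Neither of these pairs was the best peak of its gene, and the Gata6 pair scored 148 and 246. The best peak at Gata6 scored 2526 and 2024, at percentiles of 98.65 and 94.3, and was thus lower without activin. That at Cdx2 scored 2349 and 1768, at percentiles of 98.3 and 93.0. Over all genes with a pair within 5 kb, 1.39% rose and 2.03% fell by at least 25 points. The 15 genes of FGF signalling likewise all had a shared peak, compared with the same 73.7% of all genes. Among them, Fgf5 had scores of 1304 and 2398 at different places, at percentiles of 93.9 and 95.8. The feedback inhibitor Spry1 had 697 and 1211, at 85.2 and 88.4.

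The epiblast and shared pluripotency genes all had a shared peak as well, 15 of 15, compared with 73.7% of all genes. Sall4, a zinc-finger TF gene of pluripotent cells, had scores of 3217 and 3100 and Mycn 3204 and 3100, at percentiles of 99.99 and 99.98 in EpiSCs and 98.7 for both without activin. These differences, among scores of 3100 or more, are not read as falls. Pou5f1 had 2029 and 3100, at 97.6 and 98.7. Nanog encodes a homeobox TF of pluripotency, which in EpiSCs is a target of SMAD2 and SMAD3. Its only ZIC2 peak within 5 kb, at chr6:122657077-122657830 in EpiSCs and chr6:122657027-122657746 without activin, covered the start of the gene and scored 102 and 302, at percentiles of 31.7 and 61.2. Widths were 754 and 720 bp. Among the pairs Nanog rose by 39.1 points, and it was the only gene of the 6 lists to rise by 25 points or more, a rise that 1.39% of all genes with such a pair had.

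In the naive pluripotency list, genes that are high in embryonic stem cells and low in EpiSCs, 10 of 13 had a shared peak, near the 73.7% of all genes. Dppa3 and Tcl1 had a peak in the EpiSC list only, with scores of 99.3 and 81.3, and Zfp42 had none in either list. The share of all protein-coding genes with a peak in the EpiSC list only was 2.59%, and no gene of the 6 lists had one in the activin-free list only. The Tcl1 peak had its midpoint 5.21 kb from the nearest TSS and entered the window by its edge.

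Among the genes of the anterior neural plate, 21 of 22 were found in the annotation, and 18 of them had a shared peak, compared with 73.7% of all genes. Hesx1 had no peak, Zic1 had peaks in both lists that did not overlap, and Otx2 had peaks in the EpiSC list only. Six3, a forebrain TF gene, had scores of 1512 and 1719 at different places, at percentiles of 95.4 and 92.7, and Pax6, an eye and forebrain TF gene with 9 peaks in each list, had 509 and 386 at its best peak, at 79.2 and 67.0. Zic1, a paralogue of Zic2, had a peak of 170 at chr9:91256431-91257508 in EpiSCs and a peak of 57.2 at chr9:91259667-91260195 without activin, at percentiles of 50.04 and 6.27. Zic2 itself had scores of 3100 in both lists.

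Otx2 (ENSMUSG00000021848.9, chromosome 14 from 49277354 to 49287319, minus strand) had 4 EpiSC-only peaks within 5 kb of its TSSs. They scored 83.6, 69.7, 76.8 and 86.1, which placed them between the 15.9 and 24.7 percentiles of the list. The activin-free list had no peak in this window, and within 50 kb it had 6 peaks, all shared, against 11 in EpiSCs. Of the 891 coding bases of Otx2, 63.6% were covered by EpiSC ZIC2 peaks and 0% by activin-free ones. ZIC2 peaks also covered 100% of the coding bases of Zic2, Sox2 and Pou3f1 in both lists, and 76.3% and 62.6% of those of Pou5f1. In the ZIC2 libraries the plasmid expressed ZIC2, and plasmids for the other 4 TFs were used for other libraries of the series. How far plasmid DNA enters these peaks was not tested.

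**Figure D5:**
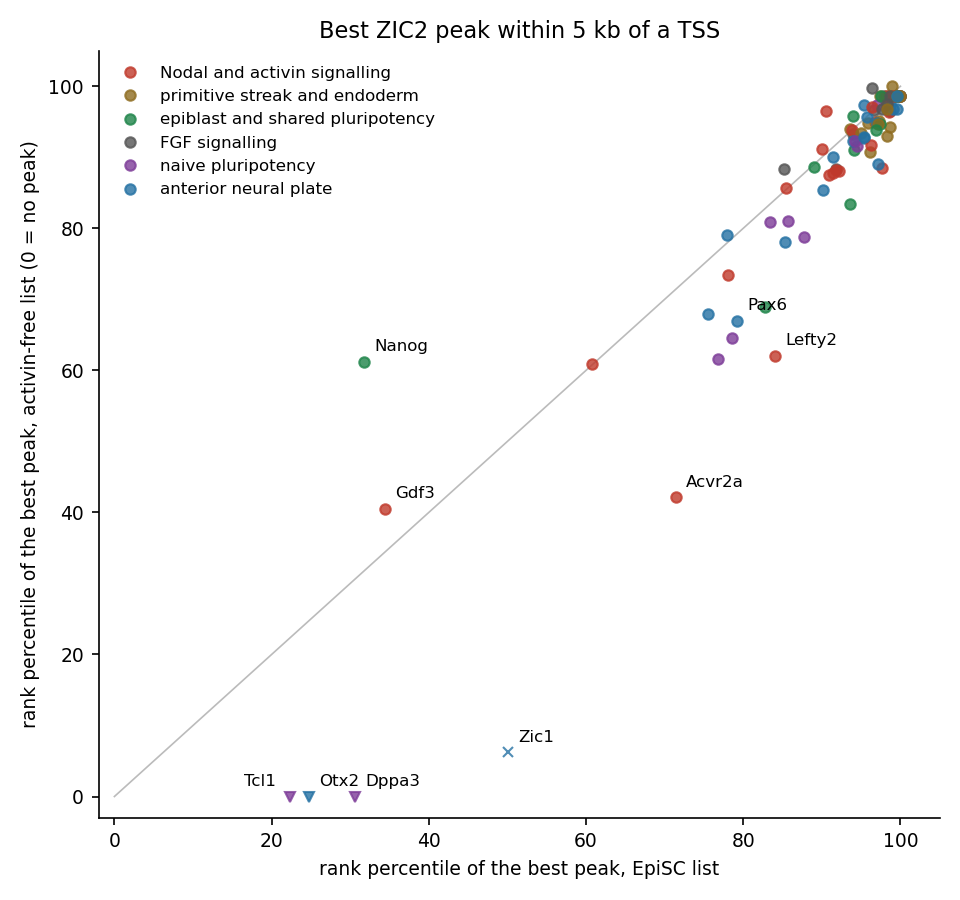
Percentile of score of the best ZIC2 peak within 5 kb of a TSS in the EpiSC list (horizontal) and in the activin-free list (vertical) for the genes of the 6 lists, coloured by list, with the line of equal percentile. Circles are genes with a shared peak, the cross is Zic1, with peaks that did not overlap, and triangles at 0 are Otx2, Dppa3 and Tcl1, with no activin-free peak; most genes lie near the upper end of the line, with Nanog above it and Lefty2 and Acvr2a below it.

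The highest places of each class were also looked up. By the lower of the 2 percentiles, the 5 highest shared peaks outside the coding exons of the transfected TF genes were nearest to Bmp6, a BMP ligand gene, Arid1b, Dact2, Cnnm2 and Pgr. This rule places peaks tied at 3100 in both lists lower, among them a peak of 12348 bp that lay 0.103 kb from the TSS of Midn. The order of the highest shared peaks is therefore not read as an order of strength. The Bmp6 peak, chr13:38436677-38440123 in EpiSCs, scored 3123 and 3103 and lay 0.815 kb from the TSS. The Arid1b place was 368 kb upstream of the gene in the tandem repeat shown above and scored 3100 and 3158. The highest EpiSC-only peak, chr1:64844859-64847227, was also over a tandem repeat, 61.7 kb from the TSS of Fzd5, a Wnt receptor gene, and its nearest activin-free midpoint was 2.38 kb away. The next EpiSC-only peaks, with scores of 413, 387, 383 and 378, were nearest to 2700062C07Rik, Heatr8, 4932442E05Rik and Mprip. The 5 highest activin-free-only peaks, with scores of 330, 312, 306, 299 and 287, were nearest to Aebp2, Slc12a1, C8b, Brd1 and Fgl1. Of these only the C8b peak lay within 5 kb of the TSS of that gene, at 2.44 kb.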

How the data were processed

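ZIC2 ChIP-seq was carried out in 1 EpiSC library and 1 activin-free library. The authors used Bowtie2 for alignment to the mm9 build and MACS1.4 for peak calling in each library, with input DNA as reference and a band width of 150 bases. Which input served the activin-free library is not given in the sources used here. The deposited lists give start, end and a score for each peak, and per the labels and the study's methods this score is that of MACS, -10 log10 of its p-value. They hold no reads, so depth is unknown.

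Peaks on chromosomes 1 to 19 and X were used. Overlap was counted from 1 bp, and distances were measured from midpoints to 86803 TSSs of GENCODE vM1, on the same build as the peaks. A gene had a peak when part of one lay within 5 kb of any of its TSSs. For Tfcp2l1 an older symbol was matched through RefSeq, and Sox1 was not matched. Sequence was read from the NCBIM37 genome, whose chromosome lengths matched the lists apart from 1 EpiSC peak that ends 1 base past chromosome 4. All steps ran in Python (3.11.15), with the packages scipy (1.17.1), numpy (2.4.6) and matplotlib (3.10.9). The overlap step was tested on simulated data, where 60.0% planted and 60.0% recovered overlap were obtained in lists of 20000 peaks.

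The members, gene lists and motifs were chosen with earlier results of these data known. Named were the 5 highest peaks of each class, 3 segments in each direction, list genes with peaks in 1 list only and a fixed set of genes of the lists, of which 1 is not reported here. Acvr2a, Smad3, Tgif1, Cdx2, Gata6, Spry1 and the genes of the printed windows were chosen after their values were seen, as were the X chromosome and the GC bins. Alternatives comprised score limits, list lengths, overlap rules, widths, windows and TSS sets. The sequenced input was not used here.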

Additional observations from a re-analysis of the deposited data

Results flagged for a closer look

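ZIC2 peaks outside the chromosomes compared were looked up because no comparison used them. The EpiSC list had 248 such peaks and the activin-free list 243. Of these, 138 and 139 were on unplaced sequence, 7 and 7 on Y, and 103 and 97 on other unassembled parts of chromosomes.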

How the results depend on the processing

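The share of EpiSC peaks with a partner (78.9%) was 82.4% at a score of at least 100, 86.9% with the 50000 highest peaks of each list, 84.3% with lists of equal length, 74.2% with 50% reciprocal overlap, 82.0% with gaps up to 500 bp allowed and 62.5% for peaks under 1000 bp. The share of activin-free peaks with a partner (91.2%) was 88.9% with 50000 peaks, 87.7% with equal lengths, 82.9% with reciprocal overlap, 92.5% with gaps allowed, 91.0% after merging peaks within 150 bp and 64.5% under 1000 bp. It stayed above the EpiSC share in each of the 7 alternatives. Peaks at most 5 kb from a TSS made up 43.2%, 31.4% and 24.9% of the shared, EpiSC-only and activin-free-only classes at a score of at least 100, 49.4%, 39.1% and 29.2% with 50000 peaks, 38.4%, 32.3% and 36.1% with reciprocal overlap, 29.3%, 18.96% and 14.7% with protein-coding TSSs, and 40.8%, 30.4% and 23.8% from peak edges. The order of the 2 unshared classes thus reversed with reciprocal overlap, where peaks that overlap by less count as unshared. For peaks scoring under 100, an alternative chosen after seeing the data, the first 2 shares were 26.3% and 28.2%. With 50000 peaks, 479 genes had an activin-free peak only, compared with 259, and 589 an EpiSC peak only, compared with 579. No paired analysis was possible because each culture had 1 ZIC2 library. The unknown depth limits what the absence of a weak peak from 1 list can show.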

Other observations

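In windows of 200 bp at the midpoint, the share of peaks with the ZIC motif did not increase steadily with the score. In the EpiSC list it was present in 18.9% of midpoint windows in the lowest decile by score, 20.1% in decile 6 and 15.98% in decile 10, and in the activin-free list in 20.3%, 22.3% and 18.1%. Median GC content rose over the same deciles, from 54.0% to 59.0% in EpiSCs and from 54.5% to 60% without activin. Over whole peaks, which are wider at high scores, the motif was present in 37.4% of shared EpiSC peaks scoring under 100 and in 52.4% of all shared EpiSC peaks.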
